A study of Mus musculus with 6 samples.

Results

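Basal3 is 1 of 16 clusters into which the authors sorted the cells of mouse tracheal epithelial cultures, and 1 of the 8 clusters they named basal. Its members were the cells that carry this name in the deposited cell table, 2194 of 23871 cells. They came from primary tracheal epithelial cells of C57BL/6 mice, each 12 weeks old, grown at air-liquid interface, a culture in which the upper cell surface faces air. There were 3 *WT/WT* mice (WT1, WT2 and WT3) and 3 *MIS/MIS* mice (MT1301, MT1306 and MT1383), which carried a missense mutation in both copies of *Dnaaf5*, a gene needed to assemble the dynein motors of cilia. The allele was a germline knock-in made with CRISPR-Cas9, so all cells of a mutant animal carried it. Transcripts were counted by droplet scRNA-Seq with unique molecular identifiers (UMIs), so that a count is a number of molecules.

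Basal cells lie on the basement membrane of the airway and divide and differentiate to replace secretory and multiciliated cells. The transcription factor p63, encoded by *Trp63*, and keratin 5, encoded by *Krt5*, mark them, and hemidesmosomes and integrins hold them to the matrix. As they differentiate under Notch signaling they lose these proteins. *Snai2* encodes a zinc-finger repressor of the Snail family, *Dlk2* a membrane protein related to the Notch ligands, and *Nrg1* a ligand of the ErbB receptors.

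The 5 genes by which Basal3 is known here are protein-coding genes in the GENCODE M21 annotation of GRCm38. *Trp63* (25683763 to 25892102) and *Snai2* (14705852 to 14709385) are both on the plus strand of chromosome 16. *Krt5* lies on the minus strand of chromosome 15 from 101707070 to 101712898, and *Nrg1* on the minus strand of chromosome 8 from 31814551 to 32884029. *Dlk2*, on chromosome 17, spans 46297421 to 46303271 on the plus strand and overlaps *Abcc10*, which is transcribed from the other strand. A Snail-family E-box (CAGGTG, or CACCTG on the other strand) and a GC box (GGGCGG, or CCGCCC) were searched in the RefSeq promoters (GRCm38.p6, 250 bases before to 50 after each start) of the 5 genes and of the 25 leading genes described below, 28 genes in all. Of these, 19 had at least 1 promoter in the table, with 25 promoters in all. The E-box was found in 7 of the 25 promoters (28%), against 20.2% of all 32851 promoters, and the GC box in 13 (52%), against 35.7%. The promoters of *Krt5* and of both starts of *Dlk2* are shown because these are the 2 marker genes with an entry and they differ in the motifs they hold. Capitals mark the E-box in *Krt5* and the GC boxes in *Dlk2*.
Krt5, chr15:101712856-101713155, minus strand: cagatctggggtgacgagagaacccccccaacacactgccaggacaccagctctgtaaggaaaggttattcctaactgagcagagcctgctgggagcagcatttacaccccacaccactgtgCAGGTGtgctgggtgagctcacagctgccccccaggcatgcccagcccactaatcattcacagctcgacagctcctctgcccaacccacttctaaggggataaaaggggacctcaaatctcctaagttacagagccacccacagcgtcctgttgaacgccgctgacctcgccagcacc
Dlk2 first start, chr17:46297233-46297532, plus strand: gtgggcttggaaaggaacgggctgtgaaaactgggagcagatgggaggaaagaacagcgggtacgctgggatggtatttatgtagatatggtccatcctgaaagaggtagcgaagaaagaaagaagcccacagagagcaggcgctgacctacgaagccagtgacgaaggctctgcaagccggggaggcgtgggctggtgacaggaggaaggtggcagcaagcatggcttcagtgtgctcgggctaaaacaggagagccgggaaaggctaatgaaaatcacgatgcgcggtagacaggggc
Dlk2 second start, chr17:46297678-46297977, plus strand: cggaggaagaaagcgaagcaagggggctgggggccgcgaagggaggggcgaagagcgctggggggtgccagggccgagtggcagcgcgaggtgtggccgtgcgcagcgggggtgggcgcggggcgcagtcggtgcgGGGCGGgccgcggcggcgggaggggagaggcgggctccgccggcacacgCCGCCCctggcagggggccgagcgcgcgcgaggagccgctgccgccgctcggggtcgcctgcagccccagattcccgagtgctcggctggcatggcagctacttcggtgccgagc
The E-box of *Krt5* begins 128 bases before the start. The first start of *Dlk2* holds neither motif, and the second holds GC boxes that begin 114 and 65 bases before it. A match of letters is a description of the sequence and does not show that a factor binds there.

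The 6 mice gave very different numbers of Basal3 cells, with 108, 623 and 359 cells from WT1, WT2 and WT3, and 692, 310 and 102 cells from MT1301, MT1306 and MT1383. The cells of a mouse held between 1670475 UMIs (MT1383) and 20404787 UMIs (MT1301) in total. The median was 23698.5 UMIs per cell over all Basal3 cells and lay between 14761.5 in MT1383 and 27179 in MT1306. The median share of mitochondrial UMIs was 9.17%, within the range of 8.73% to 14.1% of the 8 basal clusters. No barcode was found in Basal3 cells of more than 1 library, although 67 barcodes occurred in more than 1 library over all cells. Cells of a mouse are not replicates, so levels were computed from the summed counts of each mouse as CPM (the count of a gene scaled to a common library total), and means and SDs are over mice.

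*Dlk2* and *Nrg1* set Basal3 apart from the other 15 clusters, whereas *Trp63* and *Krt5* were shared with Basal4. These levels describe the cluster and carry no test, since the clusters were made from the same counts. In WT1, WT2 and WT3, *Dlk2* was at 93.7, 50.2 and 67.2 CPM, and in MT1301, MT1306 and MT1383 at 64.0, 73.1 and 85.0 CPM. The mean was 72.2 ± 15.5 CPM (SD, n = 6 mice), against 30.6 ± 9.19 in the next cluster, Basal6. Every mouse had its highest *Dlk2* level in Basal3. *Nrg1* was at 154, 152 and 189 CPM in the *WT/WT* mice and at 162, 141 and 102 CPM in the *MIS/MIS* mice. Its mean of 150 ± 28.4 CPM was again followed by Basal6 (65.1 ± 21.7), and Basal3 was the highest cluster in 6 of 6 mice. *Snai2* had a mean of 61.3 ± 7.16 CPM, against 42.2 ± 15.6 in Basal4 (n = 4 mice with at least 10 cells there) and 39.4 ± 16.7 in Basal6. Among the basal clusters, Basal3 had the highest *Snai2* level in 4 of 6 mice.

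*Trp63* was at 118, 85.3 and 115 CPM in the *WT/WT* mice and at 106, 110 and 131 CPM in the *MIS/MIS* mice. Its mean of 111 ± 15.1 CPM was second to that of Basal4, 113 ± 13.6, and these means differed by less than the spread between mice. Basal6 followed with 78.2 ± 17.6 CPM and Basal2 with 45.9 ± 6.68 CPM. *Krt5* had the same order, with 1202 ± 325 CPM in Basal4, 899 ± 181 in Basal3 and 808 ± 155 in Basal6, and the ranges of these clusters over mice overlapped. A high *Trp63* level was therefore found in Basal3 but did not separate it from Basal4, a cluster with high levels of squamous and hillock markers (17470 CPM summed over 18 genes, against a range of 3410 to 4567 CPM over the mice in Basal3).

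**Figure D1:**
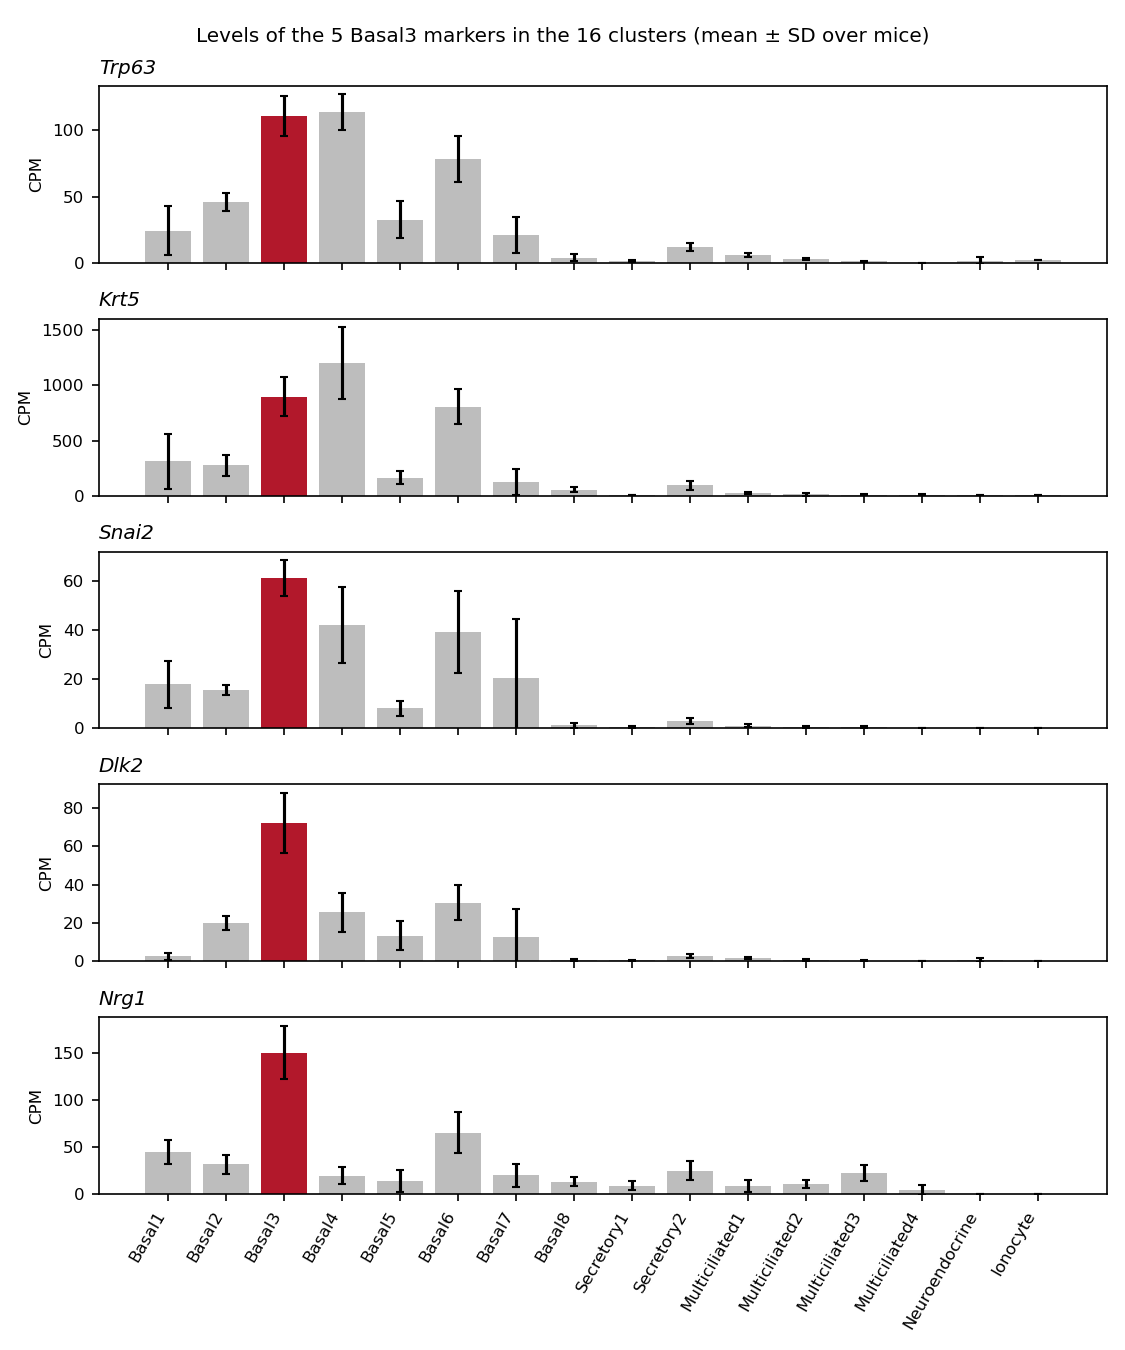
Levels of *Trp63*, *Krt5*, *Snai2*, *Dlk2* and *Nrg1* in CPM in each of the 16 clusters, as the mean over mice with at least 10 cells and 1 SD, with Basal3 in red. *Dlk2* (72.2 CPM) and *Nrg1* (150 CPM) are highest in Basal3, and *Trp63* (111 CPM) and *Krt5* (899 CPM) are second to Basal4.

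Detection in single cells followed the levels. Each cell was thinned to 5000 UMIs, and none of the 2194 cells was shallower. A UMI of *Krt5* was found in 80.7% of Basal3 cells, of *Nrg1* in 43.6%, of *Trp63* in 37.4%, of *Dlk2* in 24.9% and of *Snai2* in 23.3%. In Multiciliated3 cells, which should lack these basal genes, the shares were 1.66%, 8.52%, 0.590%, 0.0737% and 0.295% in the same order. The median depth before thinning was 23698.5 UMIs in Basal3 and 26359.5 in Multiciliated3, and without thinning the shares in Basal3 were 90.7%, 78.3%, 75.5%, 57.7% and 54.4%. Of the 5 genes, at least 1 was found in all but 178 of the thinned Basal3 cells (8.11%), and all 5 in 44 cells (2.01%). The *Nrg1* share in Multiciliated3 is well above that of the other 4 genes, so the background for *Nrg1* cannot be read from that cluster alone.

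Basal3 was not uniform. A finer clustering in the authors' cell table split it mainly into 3 groups, numbered 6, 5 and 19. Cluster 6 held 1511 Basal3 cells (68.9%) and no other cells. Cluster 19 held 132 Basal3 cells (6.02%) beside 294 Basal6 cells, and cluster 5 held 495 (22.6%) beside 904 Secretory1 and 419 Secretory2 cells. The remaining cells were spread over 4 further finer clusters. The Basal3 cells of cluster 5 differed from those of clusters 6 and 19 in all of the marker genes but *Nrg1*. *Trp63* was at 29.4 ± 5.75 CPM in cluster 5 (n = 5 mice), against 134 ± 12.5 in cluster 6 (n = 6) and 147 ± 19.8 in cluster 19 (n = 4). *Krt5* was at 218 ± 48.7, 1088 ± 205 and 1215 ± 275 CPM in the same order, and *Dlk2* at 8.23 ± 4.91, 88.8 ± 6.75 and 102 ± 14.2 CPM. The ranges over mice of cluster 5 and cluster 6 did not overlap for these 3 genes, whereas *Nrg1* was at 114 ± 35.7 CPM in cluster 5 and 164 ± 37.9 in cluster 6, with ranges that overlapped. *Krt8*, a keratin of luminal cells, was at 609 ± 34.9 CPM in cluster 5 and 215 ± 31.2 in cluster 6. *Bpifa1*, which encodes a secreted protein of airway secretory cells, was at 971 ± 433 and 85.0 ± 37.4 CPM, and the Notch receptor *Notch3* at 16.2 ± 2.63 and 5.32 ± 0.618 CPM. The Notch ligand *Jag2* went the other way, with 31.6 ± 6.42 CPM in cluster 5 and 108 ± 8.93 in cluster 6. Cluster 5 made up 10.2%, 32.3% and 23.4% of the Basal3 cells of WT1, WT2 and WT3, and 23.3%, 11.6% and 1.96% of those of MT1301, MT1306 and MT1383. The mice with few Basal3 cells thus had the smallest shares of these cells. Since cluster membership comes from the same counts, none of these differences was tested.

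**Figure D2:**
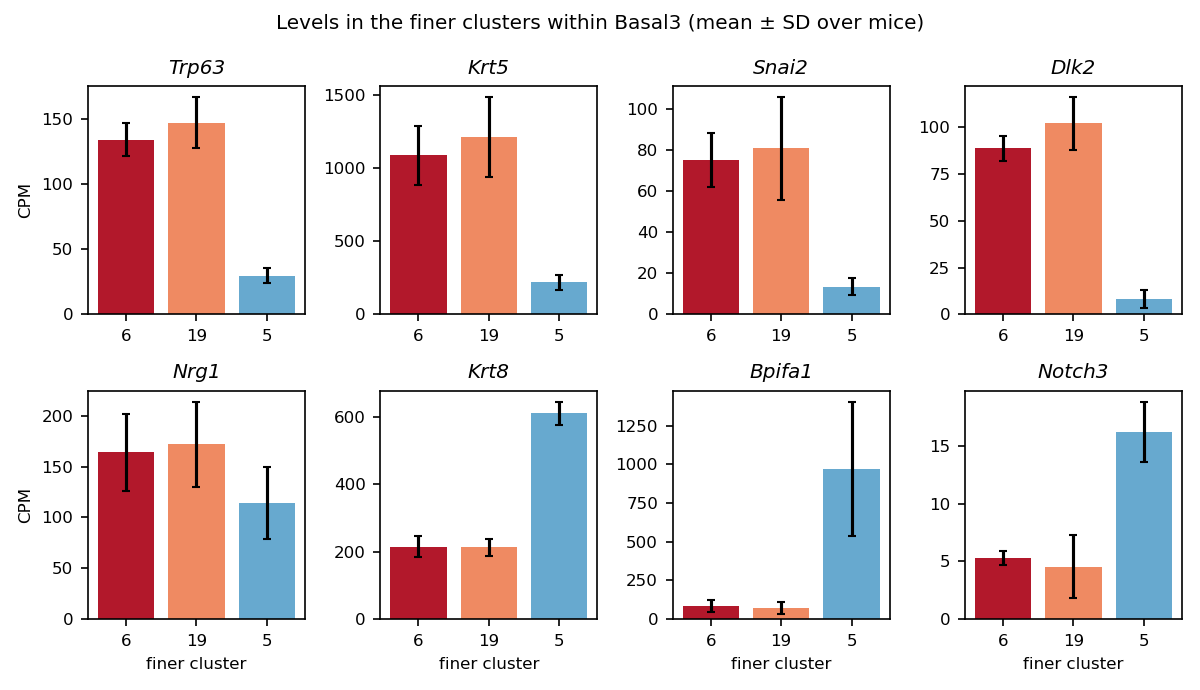
Levels in CPM of 8 genes in the Basal3 cells of the finer clusters 6, 19 and 5, as the mean over mice and 1 SD (n = 6, 4 and 5 mice). Cluster 5 has the lowest *Trp63* (29.4 CPM) and *Dlk2* (8.23 CPM) levels and the highest *Krt8* level (609 CPM), while *Nrg1* overlaps among the 3.

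Few genes were as particular to Basal3 as *Dlk2*. Of 7760 genes with at least 10 CPM in Basal3, 455 were highest there among the 16 clusters, 42 by at least 1.5 times and 11 by at least 2 times, and 81 were highest in each of the 6 mice. The 25 with the largest ratio to the next cluster were led by *Omd*, which encodes the matrix proteoglycan osteomodulin, at 11.3 ± 5.08 CPM against 4.57 in Basal2. They included genes of ligands, namely *Nrg1*, its relative *Nrg2* (31.3 ± 6.24 CPM against 18.05 in Basal6), *Bmp3* (38.2 ± 10.6 against 18.4 in Basal2) and the Notch ligand *Jag2* (92.0 ± 16.9 against 54.8 in Basal6). They also included genes that cells switch on early after a growth signal, among them the transcription factors *Myc* (114 ± 40.6 CPM against 55.5 in Basal4) and *Fosl1* (82.2 ± 41.4 against 40.0 in Basal6) and *Ptgs2*, the inducible cyclooxygenase (499 ± 225 against 246 in Secretory2). *Nfat5*, a transcription factor of the response to osmotic stress, was at 543 ± 92.5 CPM against 303 in Basal6, and *Itga9*, an integrin subunit, at 12.2 ± 0.667 CPM, highest of the 16 clusters in 6 of 6 mice. Of the 25 genes, 18 were highest in Basal3 in all 6 mice.

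Several leading genes varied widely between mice. *Myc* was at 105, 134 and 136 CPM in WT1, WT2 and WT3, and at 165, 92.1 and 49.1 CPM in MT1301, MT1306 and MT1383. *Ptgs2* was at 409, 621 and 623 CPM in the *WT/WT* mice and at 778, 426 and 138 CPM in the *MIS/MIS* mice, and *Fosl1* at 62.8, 117 and 112 and at 120, 65.2 and 16.2 CPM. For each of these 3 genes MT1301 was at the top and MT1383 at the bottom, and both genotypes overlapped. MT1383 had the lowest level for 14 of the 25 leading genes, against 28.8% of the 7760 genes with at least 10 CPM. It also had the fewest Basal3 cells and the lowest median depth, and whether these contribute to the low levels was not tested. The ratio of the highest to the lowest mouse had a median of 2.36 over the 25 genes and 1.35 over the 7760 genes. It was smallest for *Itga9* (1.16).

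**Figure D3:**
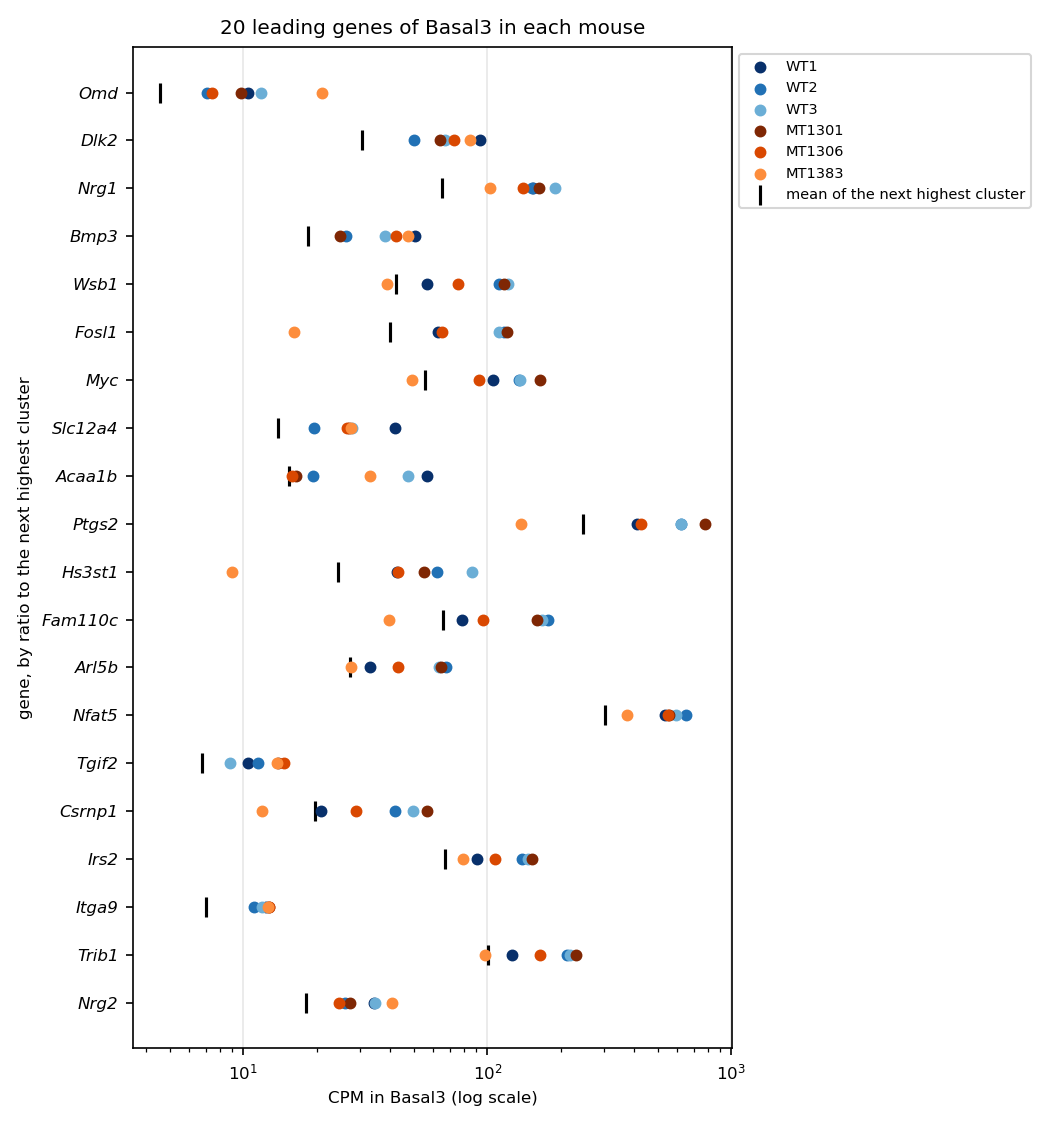
Levels in Basal3 of the 20 genes with the largest ratio to the next highest cluster, in CPM on a log axis, with a point per mouse and a black tick at the mean of the next highest cluster. MT1383 is the lowest mouse for *Myc* (49.1 CPM), *Fosl1* (16.2 CPM) and *Ptgs2* (138 CPM).

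The genes whose levels over the 16 clusters were most like that of *Trp63* were *Krt5* (Pearson r = 0.963 of log2(CPM + 1)), *Snai2* (0.961), *Col17a1* (0.959), *Wnt10a* (0.959), *Dlk2* (0.953), *Tns4* (0.950), *Bnc1* (0.949) and *Duoxa1* (0.934). These are descriptions over 16 points that share libraries. *Col17a1* encodes a collagen of the hemidesmosome and was at 105 ± 18.9 CPM in Basal3, and *Wnt10a*, a secreted Wnt ligand, was at 75.7 ± 13.7 CPM, the highest of the 16 clusters.

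At the other end, 15 genes were chosen because their level in Basal3 was lowest relative to the lowest of the other basal clusters. They were led by *Ltf*, which encodes lactoferrin, at 78.8 ± 37.8 CPM against 539 in Basal2, and included *Lyz2* (12.3 ± 3.26 against 48.8 in Basal5), the mucin *Muc4* (10.4 ± 4.09 against 24.9 in Basal2), the squamous regulator *Zfp750* (4.44 ± 1.33 against 10.6 in Basal6) and *Nrarp*, a feedback inhibitor and target of Notch signaling (3.83 ± 2.50 against 10.3 in Basal2). *Ltf* and *Nrarp* were lowest of the basal clusters in Basal3 in all 6 mice, and *Muc4* in 3.

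Gene lists were compared with the other 7 basal clusters by the log2 ratio of Basal3 to their mean. Over 9380 genes with at least 10 CPM in a basal cluster, 12.4% were highest and 10.9% lowest in Basal3, and their median log2 ratio was -0.03. Among genes of matrix adhesion, 6 of 20 were highest and 0 lowest in Basal3, with a median log2 ratio of 0.50. The 6 were *Itgb4* (217 ± 19.5 CPM), the hemidesmosomal integrin subunit, *Itga3* (65.3 ± 8.30), *Plec* (271 ± 20.1), which encodes the linker plectin, *Bcam* (154 CPM), a laminin receptor, *Dag1* (304 ± 26.2), which encodes dystroglycan, and *Fras1* (13.1 ± 3.11). For *Plec*, Basal4 was at 270 CPM, so that it and Basal3 did not differ beyond their spread. Of the basal identity genes 3 of 16 were highest (*Snai2*, *Ngfr* and *Aqp3*) and 0 lowest, with a median of 0.57. *Ngfr*, the nerve growth factor receptor of airway basal cells, was at 28.3 ± 7.65 CPM and highest of the basal clusters in 6 of 6 mice. *Krt14*, by contrast, was at 442 ± 172 CPM, which is rank 5 of the 8 clusters.

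Of 17 ErbB pathway genes 6 were highest and 2 lowest in Basal3 (median 0.48). The ligands *Nrg1*, *Nrg2* and *Ereg* and the feedback inhibitors *Dusp6*, *Spry1* and *Spry2* were the highest, and the receptors *Erbb2* and *Erbb3* the lowest. *Dusp6*, a phosphatase of ERK, was at 50.04, 76.9 and 120 CPM in the *WT/WT* mice and at 102, 77.5 and 25.7 CPM in the *MIS/MIS* mice. *Spry2* was at 49.7 ± 10.3 CPM and highest of the basal clusters in 6 of 6 mice. *Erbb2* was at 18.95 ± 1.32 CPM, against a mean of 28.7 in the other basal clusters, and *Erbb3* was at 31.4 ± 5.07 against 43.5, and each was the lowest of the basal clusters in 2 of 6 mice. The ligand *Hbegf* (504 ± 115 CPM) and the receptor *Egfr* (56.0 ± 12.6) were second of 8.

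Of 20 Notch genes 7 were highest and 4 lowest in Basal3 (median 0.19). The ligands *Dll1* (27.4 ± 6.20 CPM, against a mean of 8.84 in the other basal clusters) and *Jag2* (92.0 ± 16.9 against 29.4) were highest in Basal3 in 6 of 6 mice, together with *Dlk2*. The coactivator *Maml2* (23.0 ± 2.64 against 12.9) was also highest in 6 of 6 mice, and *Numb*, which encodes an inhibitor of Notch, in 5. *Notch3* (7.47 ± 2.16 against 15.5) and *Nrarp* (3.83 ± 2.50 against 17.9) were lowest. The ligand *Jag1* (28.5 ± 3.05 CPM) had rank 3 of the 8. For *Mib1*, *Maml1*, *Adam10* and *Adam17* the ratios to the other basal clusters were small, and none of them was highest or lowest in more than 2 of 6 mice. *Notch1* (60.6 ± 4.95 CPM) had rank 2 and the target *Hes1* (349 ± 19.9) rank 4.

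Of the p63 targets 3 of 23 were highest and 1 lowest (median 0.12), of the Wnt genes 2 of 21 and 1 (-0.04), of the TGF-beta and BMP genes 4 of 23 and 0 (-0.04), of the FGF genes 2 of 8 and 0 (-0.06) and of the YAP targets 3 of 11 and 1 (0.17). The Wnt members were *Wnt10a* and the receptor *Fzd8*, and the BMP members included *Bmp3* and *Bmp4* (61.8 ± 15.3 CPM). Of the ligands and cytokines 3 of 20 were highest and 1 lowest (0.04), of the epithelial-mesenchymal genes 2 of 12 and 2 (-0.24), and of the stress and interferon genes 4 of 17 and 3 (-0.13). In the last list the early-response genes *Junb*, *Atf3* and *Egr1* and the chaperone *Dnajb1* were highest, and the interferon genes *Isg15* and *Irf7* were among the lowest. *Snai2* was the only Snail-family gene above 1 CPM, and *Vim*, the mesenchymal filament gene, had a mean below 0.1 CPM.

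Secretory, squamous and cell cycle lists had medians below 0, as did the lists of other cell types given below. Of 17 secretory markers 0 were highest and 6 lowest (median -1.67), of 15 squamous and hillock markers 1 and 2 (-1.27) and of 30 cell cycle genes 0 and 1 (-1.51). The mean they are set against includes Basal6, which held many cycling cells, and Basal4, with 17470 CPM of summed squamous and hillock markers. The cell cycle genes with the highest levels in Basal3 included *Cdkn1a*, *Cdkn1b* and *Cdkn2a*, which encode cell cycle inhibitors. The sum over the list therefore does not measure division. The summed cell cycle level was 1338 to 1809 CPM over the mice in Basal3, above the means of Basal2 (1209) and Basal4 (1015) and below those of Basal1 (2005) and Basal6 (4671). The summed squamous and hillock level of 3410 to 4567 CPM was likewise above the means of Basal2 (2850) and Basal6 (3036), and below that of Basal1 (5735). *Mki67*, a marker of dividing cells, was detected in 22 of 2194 Basal3 cells (1.00%) and *Top2a* in 20 (0.912%), against 51.1% and 53.7% of Basal6 cells and 0.343% and 0.943% of Basal1 cells. In Multiciliated3 cells the shares were 0.221% and 0.959%. The lists of multiciliated (1 of 5 highest, 1 lowest), fibroblast and smooth muscle (1 of 3 and 0), immune and endothelial (0 of 2 and 1) and rare epithelial markers (0 of 1 and 0) had few members above 10 CPM in any basal cluster. Their medians were -0.48, -1.93, -2.51 and -0.30 in the same order. The summed level of the 13 fibroblast and smooth muscle markers lay between 20.6 and 129 CPM and was almost all *Dcn* (59.0 ± 39.2 CPM), with *Col3a1* and *Pdgfrb* near 0. The summed immune and endothelial level lay between 28.7 and 37.6 CPM, and *Ptprc*, the leukocyte common antigen, was near 0.

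**Figure D4:**
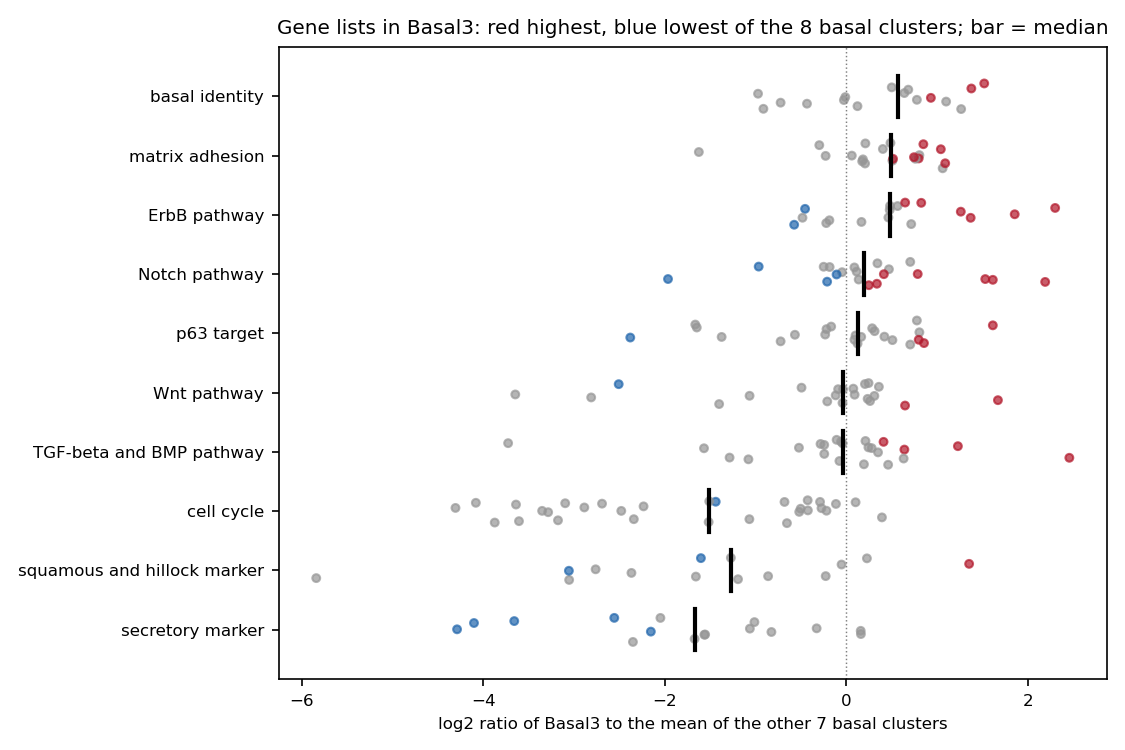
Log2 ratio of the level in Basal3 to the mean of the other 7 basal clusters for the genes of 10 lists with at least 10 CPM in a basal cluster, with a point per gene and a bar at the median of each list. Red points are highest and blue points lowest of the 8 basal clusters in Basal3, and the medians run from 0.57 for basal identity to -1.67 for secretory markers.

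Over 11730 genes the mean levels of Basal3 were most like those of Basal2 (Pearson r = 0.979), followed by Secretory2 (0.962) and Basal5 (0.956). Basal4, which shared its *Trp63* and *Krt5* levels, was eighth among the other 15 clusters (0.937). These values are across genes, which are not independent replicates.

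The share of Basal3 cells varied widely within both genotypes and overlapped between them. Basal3 made up 3.80%, 12.9% and 13.0% of the cells of WT1, WT2 and WT3, and 17.2%, 11.6% and 1.52% of those of MT1301, MT1306 and MT1383. One mouse of each genotype was far below the others. The mean was 9.87% ± 5.26 for *WT/WT* and 10.1% ± 7.93 for *MIS/MIS* (SD, n = 3 mice each). The difference of 0.223 percentage points had p = 1.0 in an exact permutation test (two-sided), whose lowest possible p with groups of this size is 0.1. As a share of basal cells the means were 20.8% ± 13.7 and 22.3% ± 17.4 (exact permutation p = 0.9). The direction of the first difference turned without WT1 (-2.81 percentage points), without MT1301 (-3.31) and without MT1306 (-0.529).

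Within Basal3, summed counts of the mice were scaled by the TMM method and compared by voom in limma, with p adjusted by the Benjamini-Hochberg method. *Dnaaf5* itself was low, at 9.40, 4.89 and 6.29 CPM in WT1, WT2 and WT3 and at 6.91, 5.46 and 5.39 CPM in MT1301, MT1306 and MT1383. Its log2 fold change (*MIS/MIS* over *WT/WT*) was 0.09 (standard error, SE, 0.22, adjusted p = 0.976), a direction that turned in 4 of the other settings tried. A missense change does not have to alter the transcript level, so this does not check the genotype. Of 11806 genes, 1 rose and 0 fell in *MIS/MIS* cells at an adjusted p under 0.05, which is 0.00847% of the genes. At an unadjusted p under 0.05 there were 518 genes (4.39%), of which 303 were higher (2.57% of all genes) and 215 lower (1.82%). The levels of all *MIS/MIS* mice lay above those of all *WT/WT* mice for 564 genes (4.78%) and below them for 518 (4.39%).

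The gene that rose was *Wdfy1*, which encodes an adaptor protein of endosomes. It was at 26.5, 25.5 and 25.4 CPM in WT1, WT2 and WT3 and at 68.0, 73.7 and 95.8 CPM in MT1301, MT1306 and MT1383. The *WT/WT* mice lay close together, and every *MIS/MIS* mouse was far above them. The log2 fold change was 1.51 (SE 0.12, adjusted p = 0.00642 by limma's voom test), a 2.85-fold rise. The call was lost without WT1 (adjusted p = 0.0513), without WT2 (0.105) and without WT3 (0.0897), with little change in the size of the difference. It was kept in each of the other settings, in which adjusted p lay between 0.00146 and 0.0471. The other basal cells also had more *Wdfy1* in the mutant, with 21.3 ± 5.01 CPM for *WT/WT* and 71.8 ± 11.8 CPM for *MIS/MIS* mice. The log2 fold change in Basal3 minus that in the other basal cells was -0.13 (SE 0.16, adjusted p = 0.948 by limma). *Wdfy1* lies on the minus strand of chromosome 1 from 79702262 to 79776143, where it overlaps *Mrpl44* on the other strand. *Mrpl44*, a gene of the mitochondrial ribosome, had a log2 fold change of -0.14 (SE 0.14, adjusted p = 0.967).

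No gene fell past the threshold, and the 5 with the lowest p among those that were lower in *MIS/MIS* cells were *Rims2*, *Gm47283*, *Scgb1a1*, *Klk8* and *Krt23*. *Gm47283*, a predicted gene on chromosome Y in GENCODE M21, had counts of 118, 1173 and 1111 in WT1, WT2 and WT3 and of 56, 150 and 1 in MT1301, MT1306 and MT1383. Its levels were 39.6, 84.4 and 101 CPM against 2.74, 14.9 and 0.599 CPM, and its log2 fold change was -4.15 (SE 0.71, adjusted p = 0.598, and 0.0217 with cells thinned to 5000 UMIs). The other basal cells also had less *Gm47283* in the mutant, with 70.9 ± 34.5 CPM for *WT/WT* and 5.04 ± 7.04 CPM for *MIS/MIS* mice. The log2 fold change of *Gm47283* in Basal3 minus that in the other basal cells was 0.49 (SE 0.25, adjusted p = 0.935 by limma). The Y-linked genes *Ddx3y*, *Uty*, *Kdm5d* and *Eif2s3y* were detected in every mouse, with adjusted p between 0.955 and 0.975. *Krt23*, which encodes a keratin, was at 63.5, 70.3 and 62.9 CPM in the *WT/WT* mice and at 41.8, 39.0 and 18.6 CPM in the *MIS/MIS* mice (log2 fold change -0.83, SE 0.18, adjusted p = 0.890). *Scgb1a1*, the secretoglobin of club cells, was at 22.8, 27.5 and 19.6 CPM against 12.9, 8.04 and 5.99 CPM (log2 fold change -1.18, SE 0.23, adjusted p = 0.890). *Rims2* and *Klk8* were near the limit of detection in *MIS/MIS* cells, with 7, 8 and 4 counts of *Rims2* and 8, 3 and 0 counts of *Klk8* in MT1301, MT1306 and MT1383. The mice of the genotypes did not overlap for any of these 5 genes, as for 4.39% of all genes in this direction, and the adjusted test called none. In the finer cluster 6 alone, log2 fold changes were -0.53 for *Krt23*, -0.98 for *Scgb1a1*, -4.05 for *Gm47283* and -3.14 for *Rims2*. Each was smaller in size than in all Basal3 cells, whereas that of *Klk8* was larger (-2.52 against -2.03).

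Of the genes that were higher in *MIS/MIS* cells without passing the threshold, *Afap1l2* and *Plet1* had the lowest p. They were singled out after their values were seen. *Plet1*, which encodes a surface protein of epithelial progenitors, was at 5.37, 4.03 and 2.28 CPM in the *WT/WT* mice and at 20.4, 12.6 and 11.4 CPM in the *MIS/MIS* mice (log2 fold change 2.25, SE 0.35, adjusted p = 0.342). In the other basal cells the mean of *Plet1* was not higher in the mutant, with 37.1 ± 45.0 CPM for *WT/WT* and 22.9 ± 3.73 CPM for *MIS/MIS* mice. *Afap1l2*, which encodes an adaptor of the actin-filament-associated family, was at 2.02, 1.08 and 0.729 CPM and at 4.66, 6.06 and 5.39 CPM (log2 fold change 2.25, SE 0.34, adjusted p = 0.342). A gap beyond the spread between mice follows from the choice by lowest p and is not support, and neither gene passed after adjustment. *Afap1l2* also rested on few counts, with 6, 15 and 8 in WT1, WT2 and WT3 and 9 in MT1383.

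**Figure D5:**
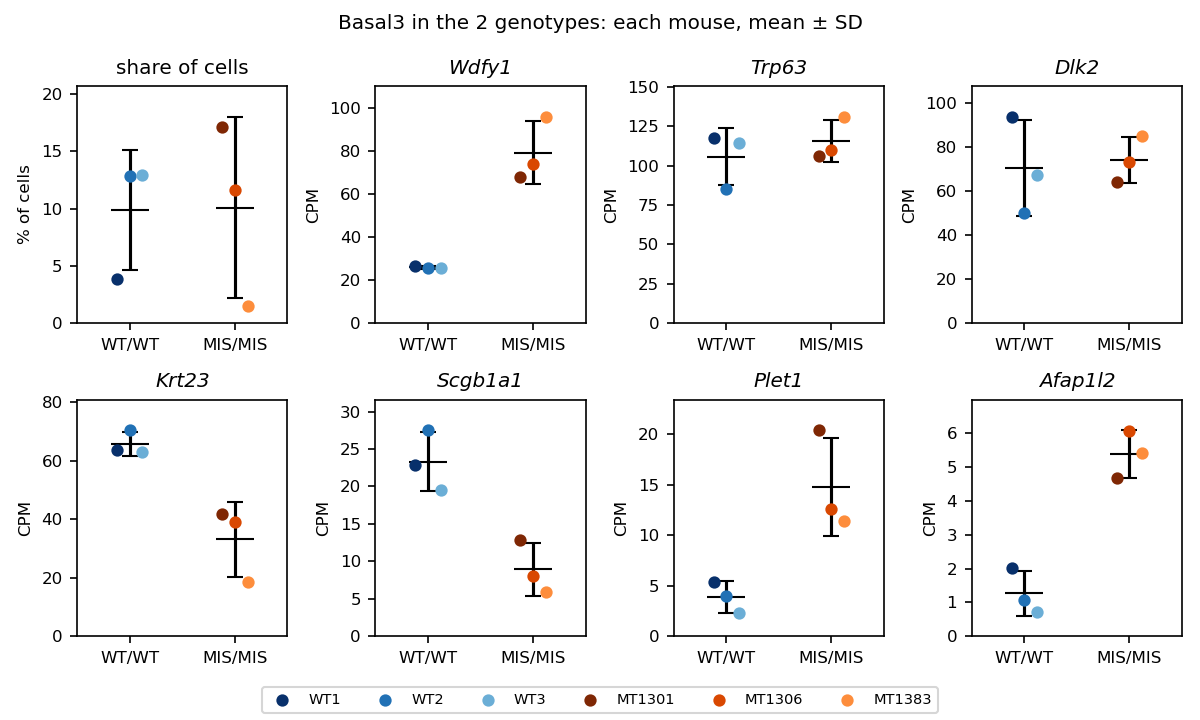
Share of Basal3 cells (% of the cells of a mouse) and levels of 7 genes in Basal3 (CPM) in *WT/WT* and *MIS/MIS* mice, with a point per mouse, the mean as a bar and 1 SD (n = 3 each). *Wdfy1* is at 25.4 to 26.5 CPM in *WT/WT* and 68.0 to 95.8 CPM in *MIS/MIS* mice and is the one gene shown that passed the adjusted test, while the shares overlap.

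The genes that mark Basal3 did not pass the threshold between the genotypes. Log2 fold changes were 0.11 for *Dlk2* (SE 0.18), -0.25 for *Nrg1* (0.16), 0.10 for *Snai2* (0.14), 0.11 for *Trp63* (0.13) and -0.21 for *Krt5* (0.17), with adjusted p between 0.955 and 0.972, and the mice overlapped for each. For *Dlk2*, *Snai2* and *Trp63* the sign turned without WT2 and in cluster 6 alone. Of the 25 leading genes 0 passed. At an unadjusted p under 0.05, 1 was higher and 1 lower, against 2.57% and 1.82% of all genes. After scaling, every *MIS/MIS* mouse lay above every *WT/WT* mouse for 3 of the 25, against 4.78% of all genes. The reverse held for 0, against 4.39%. The median log2 fold change of the 25 was -0.15, against 0.00 over all genes tested.

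None of the 19 gene lists held a gene past the adjusted threshold. Among 20 matrix adhesion genes, 6 were higher at an unadjusted p under 0.05 and 0 lower, against 2.57% and 1.82% of all genes. The 6 were *Itga2*, *Itgb6*, *Col17a1*, *Dst*, *Cd151* and *Npnt*, each with an adjusted p of 0.955. After scaling, 6 of the 20 (*Itgb6*, *Dst*, *Cd151*, *Npnt*, *Lama3* and *Lama5*) were above every *WT/WT* mouse in every *MIS/MIS* mouse, against 4.78% of all genes. The median log2 fold change of the list was 0.17. *Cd151*, a tetraspanin that binds laminin-binding integrins, was at 104, 90.2 and 98.5 CPM in the *WT/WT* mice and at 113, 121 and 117 CPM in the *MIS/MIS* mice (log2 fold change 0.26, SE 0.08, adjusted p = 0.955). *Dst*, which encodes the hemidesmosomal linker dystonin, was at 215, 173 and 198 CPM and at 207, 268 and 283 CPM, so that MT1301 lay below WT1 before the scaling of libraries. *Col17a1* overlapped between the genotypes. The other lists had medians between -0.21 (rare epithelial markers, 3 genes tested) and 0.30 (multiciliated markers, 15 genes tested), and at an unadjusted p at most 5 genes were higher (Wnt genes, 21 tested) and at most 2 lower (secretory markers, 16 tested). The Wnt list thus came close to that of matrix adhesion, with a median also of 0.17. Its 5 higher genes were *Wnt4*, *Wnt9a*, *Fzd8*, *Lgr4* and *Lgr6*, and *Sfrp1* was lower. Without overlap of the mice, 1 Wnt gene lay above and 1 below. The summed level of the 22 secretory markers was 12147 to 14555 CPM over the *WT/WT* mice and 11070 to 13296 CPM over the *MIS/MIS* mice, so that the genotypes overlapped.

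The difference between the genotypes in Basal3 was set against that in the other basal cells of the same mice with limma on the log2 differences within each mouse. Of 11799 genes, 0 passed (0%), with 469 at an unadjusted p under 0.05 and a lowest adjusted p of 0.935. In simulated data with a dispersion of 0.02 between mice the voom test of Basal3 recovered 75% of 200 genes changed 2-fold, but 1% at a dispersion of 0.1. Both dispersions were set by hand, and that of these data was not estimated. The median SD between mice of a genotype was 0.21 on the log2 CPM scale over the genes tested. It includes counting noise and was not converted to a dispersion, so the 2 settings do not carry equal weight. The comparison with the other basal cells was not simulated, so these shares do not describe its power.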

How the data were processed

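Single cells cultured from 3 *WT/WT* and 3 *MIS/MIS* animals were analysed. The authors aligned the droplet reads with Cell Ranger (7.1.0 and build mm10 in the submitters' processing notes, another version in the paper's methods) and used Seurat to filter and cluster. They deposited raw UMI counts of 20483 genes per cell with a table of cluster names. All values were whole numbers, and the total of each of the 23871 cells equalled that in the cell table. Because the deposited table uses an unusual separator, its values were recorded as another unit than counts, and no negative binomial test was used. According to the paper's methods, cells with over 7500 genes were taken as potential doublets and removed. Of the 2194 deposited Basal3 cells 2167 met that limit and the limits on low gene number and mitochondrial share, and no doublet caller was run. The members, gene lists and tests were chosen with earlier results of these data known.

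Counts were summed per mouse over the Basal3 cells. Levels are CPM of these sums, for clusters with at least 10 cells of a mouse. A gene was tested if 3 mice or more reached the level of 10 counts at the median depth and its counts summed to 15 or more, leaving 11806 genes. limma 3.58.1 in R 4.3.3 was used with voom weights, TMM factors (trims of 30% and 5%) and Benjamini-Hochberg adjustment at 0.05. The sums held 1668080 to 20382000 UMIs on these genes, and the median SD between mice of a genotype was 0.21 on the log2 CPM scale. In data simulated from these sums with no gene changed, 0 genes were called, and 1.96% of calls were false at a dispersion of 0.02. Exact permutation tests of shares were two-sided (Python 3.11.15, scipy 1.17.1).

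Genes named in the text were the 5 markers, list members given in counts with examples, the 25 genes with the largest ratio to the next cluster, the 15 lowest against the lowest other basal cluster, the 8 genes most like *Trp63*, *Dnaaf5*, *Wdfy1*, and between genotypes up to 5 genes per direction that passed with no overlap, or the 5 of lowest p where none passed. Alternatives were another normalization (upper quartile), testing all genes without the filter, limma-trend, each mouse left out, cells thinned to 5000 UMIs, and the stated cell filters (2500 to 7500 genes, up to 25% mitochondrial UMIs). The finer cluster 6 alone was added after seeing the data. Values of 2 genes counted in the text are not reported here.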

Additional observations from a re-analysis of the deposited data

How the results depend on the processing

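The count of genes that differed between the genotypes in Basal3 was 1 with upper-quartile normalization, no low-count filter, limma-trend, the stated cell filters and cluster 6 alone (chosen after seeing the data). It was 2 with cells thinned to 5000 UMIs, where *Gm47283* was added as lower. Leaving out a mouse gave 0 to 2 genes, with 0 without WT1, WT2 or WT3, and with *Col8a1* as the second gene without MT1301. The interaction count was 0 in all 11 alternatives run, with no limma-trend alternative since that fit already uses it. The difference in share was -2.19 percentage points with cells pooled over the mice, which has no test, and -3.31 to 4.51 with each mouse left out, while the other 3 alternatives kept its sign. Marker levels moved by more than 1 SD in cluster 6 alone, to 88.8 CPM for *Dlk2*, 74.9 for *Snai2*, 134 for *Trp63* and 1088 for *Krt5*, and the other 46 values moved by less. Log2 fold changes turned sign in cluster 6 alone for *Dnaaf5* (-0.25), *Dlk2* (-0.089), *Snai2* (-0.062) and *Trp63* (-0.047), and for *Dnaaf5* with limma-trend (-0.17). With each mouse left out they ran from -0.14 to 0.19 for *Dnaaf5* (-0.13 without MT1301), -0.12 to 0.25 for *Dlk2*, -0.080 to 0.26 for *Snai2* and -0.048 to 0.21 for *Trp63*, in each case lowest without WT2. The cause of these changes was not tested. Leaving out a mouse leaves 2 against 3, and WT1 and MT1383, with about 100 Basal3 cells each, limit the precision. No paired analysis was possible because mutant cells carry numbers that no sample title contains, so no *MIS/MIS* mouse shares a number with a *WT/WT* mouse. A shared number would also not show that 2 mice came from the same litter. The paper describes the *WT/WT* mice as littermates of the *MIS/MIS* mice. Neither its main text nor the sample labels state which mice shared a litter, so mice were not paired by litter, and an effect of litter was not tested.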
